A study of Mus musculus with 16 samples.

Results

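Hox genes encode homeodomain transcription factors that sit side by side in the clusters Hoxa, Hoxb, Hoxc and Hoxd. The number in a gene's name is its paralogue group, counted from the 3′ end of the cluster, and genes near the 3′ end are switched on earlier and further towards the head of the embryo than genes near the 5′ end. The adult lung keeps part of this positional code, mainly in mesenchymal cells, and Hoxa5 and Hoxb5 are known for their roles in lung formation. All genes whose array annotation gave a single symbol from Hoxa, Hoxb, Hoxc or Hoxd followed by a number were taken. This gave 33 genes out of 18193 genes with a single symbol on the array, and out of 39 Hox genes in the RefSeq gene table. The other Hox genes were not analysed here. The 33 genes had 48 probe sets, and each gene was read at the probe set with its highest mean level, so that 15 other probe sets served only as a cross-check.

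The study exposed male Balb/c mice to second-hand smoke before birth, as adults, or at both times, and profiled the left lung at 15 weeks of age. The smoke was sidestream cigarette smoke at a particle load of 10 mg/m3, given 5 hours daily, 7 days a week, and controls breathed filtered air. Group AA had air at both times, AS air in utero and smoke as an adult, SA smoke in utero and air as an adult, and SS smoke at both times. Each group had 4 arrays, but AS replicates 3 and 4 and SS replicates 1 and 2 were near-identical, so the mean of each pair entered as a single sample. This left 4 AA, 3 AS, 4 SA and 3 SS samples. No transgene or mutation was involved, and the labels name no litter. The labels call the replicates biological, but the near-identical pairs may not be separate animals, and p-values measure the spread between these samples.

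All values are log2 signals of the deposited table, so a difference of 1 is a doubling, and array medians lay between 6.90 and 6.93. The tissue label was checked first. Surfactant protein C (Sftpc, 15.07), the club cell protein Scgb1a1 (14.95) and the type 1 cell receptor Ager (14.40) were among the brightest probe sets, and all 12 lung markers lay above 38 olfactory receptor genes, which served as a level of genes not known for the lung. The sample made from AS replicates 3 and 4 had the lowest array weight, 0.265, against 0.584 to 1.86 in the others, and the highest lung markers, on average 0.24 above the AA mean. SA replicate 4 had cell cycle markers on average 1.28 and erythroid markers on average 1.69 above the AA mean, higher than in any other sample. Where leaving out either sample changed a Hox call, the values without it are given.

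Promoter sequence is shown for the brightest Hox gene and for the called genes that have one in RefSeq (GRCm38.p6), as the 250 bases before the annotated start, written 5′ to 3′ on the gene's strand. Capitals mark matches, on either strand, to a motif: TATAAA (the TATA box), TGATTGAT (a site of Hox-Pbx pairs), AGGTCA (the core hexamer of nuclear receptors such as those of retinoic acid) and CCAAT. These motifs were chosen with the promoters already read, and a match on the other strand appears as the reverse complement. The windows are Hoxa5 at chr6:52204588-52204837 and Hoxa2 at chr6:52164832-52165081, both on the minus strand, and Hoxd13 at chr2:74667975-74668224 on the plus strand.
Hoxa5: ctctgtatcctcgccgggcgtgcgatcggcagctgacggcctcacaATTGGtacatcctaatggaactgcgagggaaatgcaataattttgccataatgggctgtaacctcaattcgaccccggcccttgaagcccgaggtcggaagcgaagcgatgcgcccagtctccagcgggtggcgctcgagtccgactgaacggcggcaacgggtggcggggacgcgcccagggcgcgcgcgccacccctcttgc
Hoxa2: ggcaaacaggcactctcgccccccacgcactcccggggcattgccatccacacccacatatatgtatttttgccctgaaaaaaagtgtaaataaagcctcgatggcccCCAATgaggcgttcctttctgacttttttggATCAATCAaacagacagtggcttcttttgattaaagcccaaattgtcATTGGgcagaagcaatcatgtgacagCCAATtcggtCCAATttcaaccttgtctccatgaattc
Hoxd13: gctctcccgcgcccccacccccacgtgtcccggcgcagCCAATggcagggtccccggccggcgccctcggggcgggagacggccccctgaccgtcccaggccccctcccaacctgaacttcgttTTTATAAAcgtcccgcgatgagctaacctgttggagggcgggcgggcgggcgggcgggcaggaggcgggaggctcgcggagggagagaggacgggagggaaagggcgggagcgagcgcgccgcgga
The Hoxa5 window held 28 CpG dinucleotides, more than 92.4% of all 32851 promoters in the table, and 1 CCAAT match 204 bases before the start. The Hoxa2 window held 6 CpG, the median of all promoters, with the TGATTGAT match 111 bases before the start and 4 CCAAT matches. The Hoxd13 window held 31 CpG and overlapping forward and reverse TATAAA matches at 124 and 126 bases before the start. Over all promoters, 12.4% held TATAAA, 0.670% TGATTGAT, 14% AGGTCA and 33.8% CCAAT. Of 21 Hox windows from 19 genes, 2 held TATAAA, 2 TGATTGAT (Hoxa2 and Hoxd11), 5 AGGTCA and 11 CCAAT. The 8 Hox genes with a window that were expressed above all olfactory receptor genes, as described next, had a median of 10.5 CpG, and the 11 others had 20. Hoxa4 has no entry in the table. A match describes the letters only.

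In adult lung, 1 Hox gene was bright, Hoxa5, a regulator of lung and airway formation without which mice have malformed airways at birth. Its mean over the 14 samples was 9.94, above 86.9% of all probe sets and above the 75th percentile of 8.84 that defines bright. It read 10.07, 9.81, 9.81 and 9.84 in the AA samples, 10.25, 9.98 and 9.68 in AS, 9.90, 10.34, 10.20 and 10.01 in SA, and 9.58, 9.72 and 9.98 in SS. Hoxa5 was thus bright in every sample, and the order of its group means, SA (10.11 ± 0.20, SD, n = 4), AS (9.97 ± 0.29, n = 3), AA (9.88 ± 0.12, n = 4) and SS (9.76 ± 0.20, n = 3), had overlapping neighbours throughout. Its other probe set was also bright, at 9.42. The brightness of a probe set depends on its probes as well as on the transcript, so an order of genes describes the signals, not molecule numbers.

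The next genes came from the Hoxb cluster. Hoxb2, which patterns the hindbrain and facial nerve, had 8.67, and Hoxb5, a regulator of lung branching, had 8.64. Hoxb4, known for expanding blood stem cells, followed with 8.12 and its neighbour Hoxb3 with 8.07. These 4 genes lay between the median of all probe sets (6.92) and the bright limit. Hoxa7 (7.70) was intermediate too, and so was Hoxa3 (7.56), a gene needed for thymus and parathyroid. The same held for Hoxb6 (7.50), Hoxa4 (7.19), a neck vertebra patterning gene, and Hoxa9 (6.94), known from blood progenitors. Hoxb6 ranged from 7.02 in an AS sample to 7.95 in an SA sample, and Hoxa9 only from 6.81 to 7.05.

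**Figure D1:**
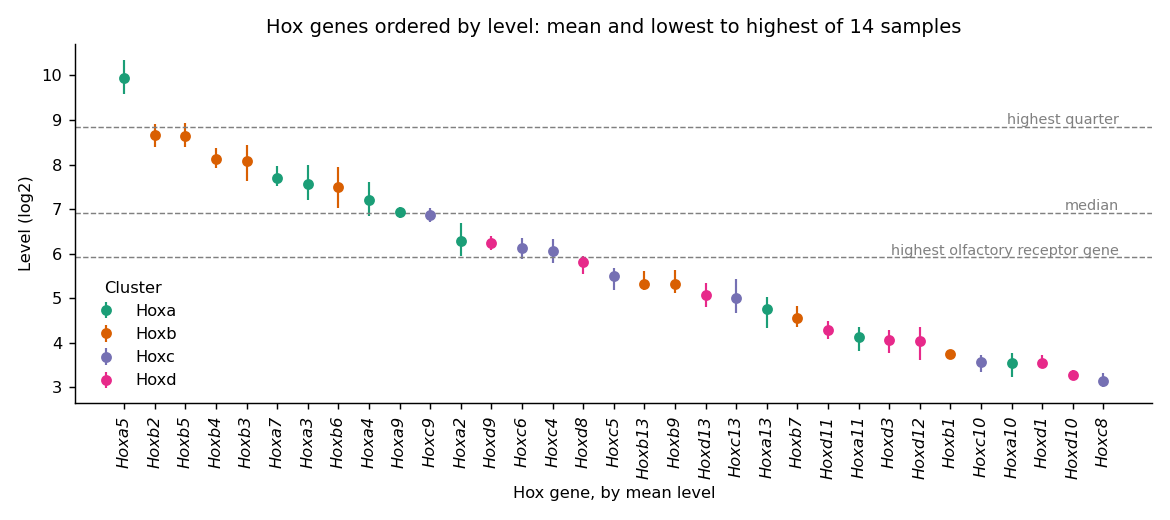
The 33 Hox genes from the highest to the lowest mean level (log2, vertical axis), with bars from the lowest to the highest of 14 samples, coloured by cluster, and dashed lines at 8.84, 6.92 and 5.91. Hoxa5 stands alone at 9.94, the next genes up to Hoxb3 lie between 8.07 and 8.67, and the lowest is Hoxc8 at 3.14.

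Below the median, 5 genes still exceeded every olfactory receptor gene, whose highest level was 5.91 (36.4% of probe sets were lower) and whose median was 4.49. They were Hoxc9 (6.87), Hoxa2 (6.28), a regulator of the hyoid arch and hindbrain, Hoxd9 (6.23), Hoxc6 (6.12) and Hoxc4 (6.05). Hoxc6 and Hoxc4 exceeded 5.91 in 13 of 14 samples each, and the other 13 genes above the olfactory level did so in all 14. The remaining 18 genes had means within the olfactory range or below it, from 5.80 for Hoxd8, which exceeded 5.91 in 4 samples, down to 3.14 for Hoxc8. They included the limb genes Hoxd11 (4.28), Hoxd12 (4.03) and Hoxd13 (5.07), the uterine genes Hoxa10 (3.55) and Hoxa11 (4.13), the hindgut and limb gene Hoxa13 (4.74), and the hair gene Hoxc13 (4.99). At these levels an array signal was not told apart from that of genes not known for the lung.

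By cluster, 6 of 9 measured Hoxa genes and 5 of 9 Hoxb genes lay above the olfactory level, against 3 of 7 Hoxc and 1 of 8 Hoxd genes. The cluster medians were 6.94 for Hoxa, 7.50 for Hoxb, 5.50 for Hoxc and 4.16 for Hoxd. By position, the median was 6.28 over the 7 anterior genes (paralogue groups 1 to 3), 6.66 over the 12 central genes (groups 4 to 8) and 4.87 over the 14 posterior genes (groups 9 to 13). A step along the cluster came, in Hoxa and Hoxb, between Hoxa9 (6.94) and Hoxa10 (3.55), and between Hoxb6 (7.50) and Hoxb7 (4.56). Spearman's rho of level against paralogue number was -0.38 over 33 genes, -0.55 in Hoxa, -0.27 in Hoxb, -0.32 in Hoxc and 0.12 in Hoxd. These are descriptions, since all points share the same arrays. The 3′ end was not uniformly bright, with Hoxb1 at 3.74, Hoxd1 at 3.54 and Hoxd3 at 4.05.

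**Figure D2:**
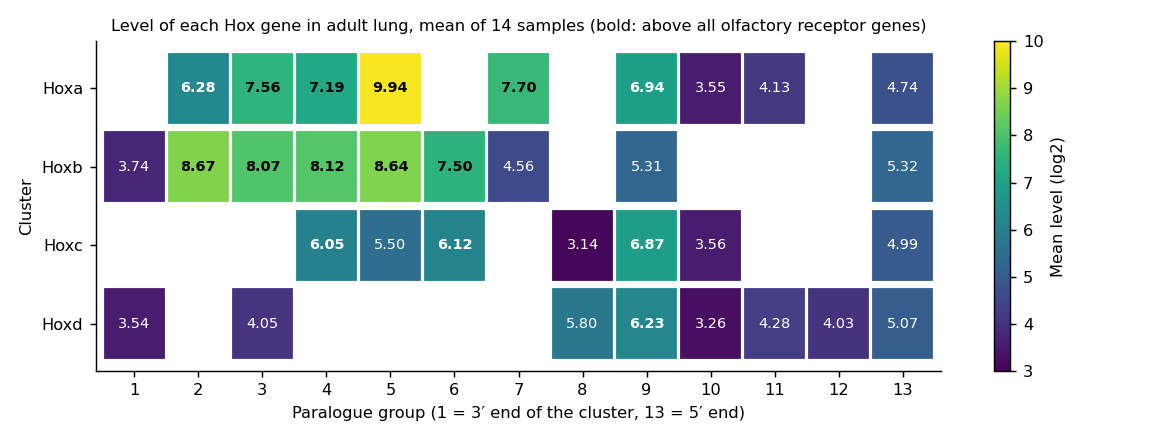
Mean level (log2, colour and number) of each measured Hox gene over 14 samples, with clusters as rows and paralogue groups as columns; blank cells have no gene or no probe set of their own. Bold numbers exceed 5.91, the highest olfactory receptor gene, and run from Hoxa2 to Hoxa9 and from Hoxb2 to Hoxb6, with isolated genes in Hoxc and Hoxd.

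The main question was whether smoke in adult life moved these genes in mice that had air in utero (AS minus AA). None of the 33 Hox genes passed an adjusted p of 0.05 (limma, Benjamini-Hochberg over all 45037 probe sets), where 1.55% of all probe sets did. At an unadjusted p under 0.05 there were 7 genes, against 20.3% of all probe sets. Of these, 2 were lower (10.0% of probe sets were), Hoxa2 and Hoxb6, and 5 were higher (10.3%), all of them not above the olfactory level. The lowest p-values on the higher side belonged to Hoxc13, a hair follicle gene (0.31 ± 0.09 SE, adjusted p 0.0830), Hoxb7 (0.28 ± 0.09, 0.109) and Hoxd13 (0.22 ± 0.07, 0.122). On the lower side they belonged to Hoxa2 (-0.30 ± 0.11, 0.172), Hoxb6 (-0.32 ± 0.14, 0.224) and Hoxb2 (-0.17 ± 0.09, 0.291). Without the sample of AS replicates 3 and 4, Hoxc13 passed the threshold (0.40 ± 0.08, adjusted p 0.0456), and it was the 1 Hox gene to do so.

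In mice that had smoke in utero (SS minus SA), Hoxa4 was the 1 Hox gene that passed the threshold. It read 7.48, 7.37, 7.61 and 7.11 in SA and 6.84, 6.92 and 6.89 in SS. All 3 SS samples lay below all 4 SA samples, and also below the AA samples, at 7.36, 7.38, 7.01 and 7.03, and the AS samples, at 7.21, 7.14 and 7.36. Hoxa4 fell by 0.51 ± 0.12 (SE) on the log2 scale, or fell by 29.6%, with a limma adjusted p of 0.0443. Across all probe sets 1.64% were called in this comparison and 0.864% were called lower. Its second probe set, at a level of 3.86, had -0.26 and was not called. The call was lost when any of 8 samples was left out: AS replicate 1 or 2, SA replicate 1, 2 or 3, or any SS sample, with adjusted p-values up to 0.157, and the difference then lay between -0.43 and -0.52. Without SA replicate 4 it was -0.60, with an adjusted p of 0.0142, and Hoxa2 passed as well (-0.44 ± 0.10, adjusted p 0.0393).

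Several other genes of the Hoxa and Hoxb clusters had differences of the same sign in SS minus SA that did not pass, while the intermediate genes Hoxa7 (0.16) and Hoxa9 (0.04) were above 0. Of the 33 genes, 8 were lower at an unadjusted p under 0.05, against 7.22% of all probe sets, and 2 were higher, against 7.26%, which made 10 in all against 14.5%. The 8 genes were Hoxa2, Hoxa3, Hoxa4, Hoxa5, Hoxb2, Hoxb3, Hoxb4 and Hoxb5, which all lay above the olfactory level. Hoxb4 came nearest, with 8.21, 8.33, 8.37 and 8.31 in SA and 8.08, 7.95 and 8.02 in SS, a difference of -0.29 ± 0.08 (adjusted p 0.0955). Its groups did not overlap at this probe set, but its other probe set, at a level of 6.76, had -0.11. Hoxb3 had -0.37 ± 0.12 (adjusted p 0.180), with -0.12 at its other probe set (7.62). Hoxa3 had -0.37 ± 0.12 (adjusted p 0.160), with -0.15 at its probe set of nearest level (7.40). The other Hoxa3 probe sets, within the olfactory range at 4.53 and 4.04, had 0.20 and 0.14. Hoxa5 had -0.35 ± 0.14 (adjusted p 0.249), with -0.30 at its other probe set, and 1 SS sample lay within the SA range. Higher values belonged to Hoxb9, a rib patterning gene (0.23 ± 0.08, adjusted p 0.160), to Hoxd13 (0.16 ± 0.07, 0.316) and to Hoxc6 (0.16 ± 0.09, 0.428).

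**Figure D3:**
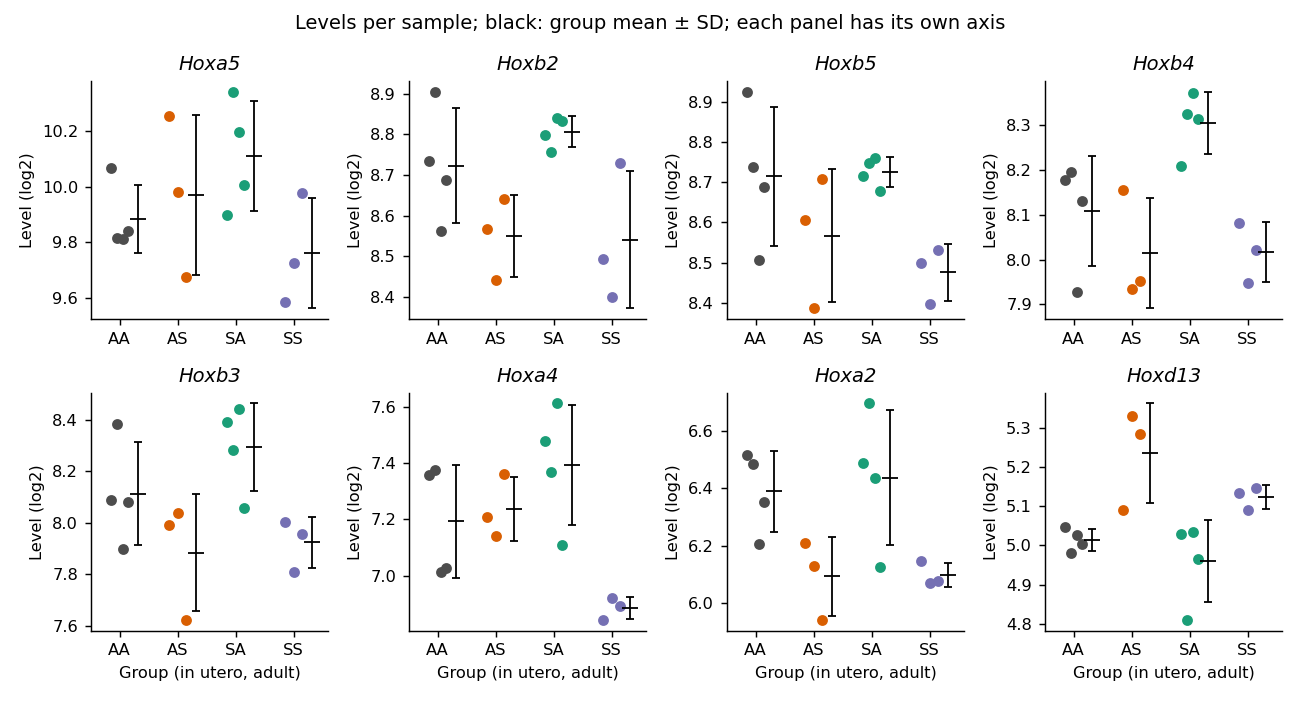
Level (log2) of 8 Hox genes in each sample, by group, with the group mean ± SD in black; each panel has its own axis, and the groups have 4 AA, 3 AS, 4 SA and 3 SS samples. The SS samples of Hoxa4 lie between 6.84 and 6.92, below the other 11 samples, while those of Hoxa5 overlap the other groups.

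Whether the adult effect depended on the exposure in utero was tested by the interaction, (SS minus SA) minus (AS minus AA). No Hox gene passed, where 0.131% of all probe sets did, and 2 had an unadjusted p under 0.05, against 9.11%. These were Hoxa4, with 0.04 ± 0.12 after air and -0.51 ± 0.12 after smoke in utero (interaction -0.55 ± 0.17, adjusted p 0.262), and Hoxa5, with 0.09 ± 0.14 and -0.35 ± 0.14 (interaction -0.44 ± 0.19, adjusted p 0.509). The Hoxa4 change in SS was thus not shown to differ from that in AS. The next lowest p-value on the lower side was that of Hoxb7 (-0.22 ± 0.13, 0.646), and the lowest p-values on the higher side were those of Hoxb9 (0.15 ± 0.11, 0.720), Hoxa7 (0.14 ± 0.13, 0.798) and Hoxa11 (0.15 ± 0.14, 0.801).

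Averaged over both in-utero exposures, 2 of the 33 Hox genes passed the threshold for adult smoke against adult air, 1 in each direction. That is about the share among all probe sets, of which 5.95% passed, 3.13% lower and 2.82% higher. The count of Hox calls thus did not stand out from the array as a whole. Hoxa2, which specifies structures of the hyoid arch, fell by 0.32 ± 0.08, or fell by 19.7% (adjusted p 0.0351). It read 6.52, 6.48, 6.21 and 6.35 in AA against 6.21, 6.13 and 5.94 in AS, and 6.49, 6.69, 6.44 and 6.13 in SA against 6.15, 6.07 and 6.08 in SS. The smoke groups lay at the low end with some overlap, and 3 of the 6 adult smoke samples were below every adult air sample. The differences in the separate comparisons were close, -0.30 ± 0.11 and -0.34 ± 0.11, and neither passed by itself with all 14 samples. The call was lost without AA replicate 1, 2 or 4, any SA sample but replicate 4, any SS sample, or the sample of AS replicates 3 and 4 (-0.28, adjusted p 0.0755), with adjusted p-values up to 0.0845. Without SA replicate 4 the difference was -0.37 and the adjusted p 0.00887.

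Hoxd13, the digit gene at the 5′ end of its cluster, was called higher by 0.19 ± 0.05 (adjusted p 0.0415). It read 5.05, 4.98, 5.03 and 5.00 in AA against 5.09, 5.33 and 5.28 in AS, and 5.03, 4.81, 5.03 and 4.97 in SA against 5.13, 5.09 and 5.15 in SS. All 6 adult smoke samples were above all 8 adult air samples. Its level lies within the olfactory range, and its other probe set, at 5.05, had -0.08, so that the mean of both probe sets gave 0.06 with an adjusted p of 0.392. The call was lost when any AA or SS sample was left out, or AS replicate 2, the sample of AS replicates 3 and 4 (0.18, 0.0722), or SA replicate 1, 2 or 3, with adjusted p-values up to 0.0872. Without SA replicate 4 it was 0.19 with an adjusted p of 0.0457. After a further quantile normalization Hoxd13 had 0.14 and an adjusted p of 0.145.

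At an unadjusted p under 0.05 the adult average had 13 Hox genes, against 25% of all probe sets, 8 lower against 11.9% and 5 higher against 13%. The lower values closest to the threshold were Hoxb2 (-0.22 ± 0.06, adjusted p 0.0552), Hoxb3 (-0.30 ± 0.09, 0.0583) and Hoxb4 (-0.19 ± 0.06, 0.0589). The higher ones were Hoxc13 (0.21 ± 0.06, 0.0569) and Hoxb9 (0.16 ± 0.05, 0.0911), both not above the olfactory level. At the other probe set of Hoxb3, at a level of 7.62, the difference was -0.03, and at that of Hoxb4, at 6.76, it was -0.18. Hoxa5 itself had -0.13 ± 0.10 (0.413). Without SA replicate 4, Hoxa4 (-0.28 ± 0.07, 0.0376), Hoxb3 (-0.34 ± 0.09, 0.0316) and Hoxc13 (0.22 ± 0.06, 0.0470) passed too, and without the sample of AS replicates 3 and 4 the 1 gene past the threshold was Hoxc13 (0.26 ± 0.06, 0.0249).

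The sign of the adult average varied with position along the clusters, with level and with the cluster itself, and these were not separated. By cluster, 4 of 9 Hoxa, 6 of 9 Hoxb, 1 of 7 Hoxc and 0 of 8 Hoxd genes were below 0. Among the 7 anterior genes 5 were below 0, with a median of -0.22, among the 12 central genes 6 were, with a median of -0.03, and all 14 posterior genes were above 0, with a median of 0.11. Over all probe sets 45.9% were below 0 and the median was 0.01. Among the 15 Hox genes above the olfactory level 10 were below 0, with a median of -0.19, while of all 28645 probe sets above that level 56.4% were below 0, with a median of -0.02. Among the 18 others 17 were above 0, with a median of 0.09, but probe sets at that level as a whole had a median of 0.06 and only 27.4% below 0. After a further quantile normalization 11 of these 18 were above 0 (median 0.04), and 12 of the 14 posterior genes (median 0.07), while 7 of the 7 anterior genes were below 0 (median -0.19) and 10 of the 15 above the olfactory level were still below 0 (median -0.16). The small positive values of the dim Hox genes are therefore given beside a shift shared by dim probe sets, whose part in them was not tested.

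Within the genes above the olfactory level, 8 of 15 were below 0 in both AS minus AA and SS minus SA, comparisons that share no samples, beside 36.5% of all probe sets above that level. They were Hoxa2, Hoxa3, Hoxb2, Hoxb3, Hoxb4, Hoxb5, Hoxb6 and Hoxc4. Hoxc4 had only -0.0003 in SS minus SA. The other Hoxa3 probe sets were above 0 in AS minus AA, with 0.10 at the one of nearest level (7.40). A further 4 genes were above 0 in both, and Hoxa4, Hoxa5 and Hoxd9 differed in sign. In the Hoxb cluster the 5 genes from Hoxb2 to Hoxb6 were below 0 in both comparisons at their highest-mean probe sets. The AS minus AA values of these 5 genes lay between -0.32 (Hoxb6) and -0.09 (Hoxb4), and the SS minus SA values between -0.37 (Hoxb3) and -0.25 (Hoxb6). The other Hoxb3 probe set, at 7.62, had 0.05 in AS minus AA and -0.12 in SS minus SA. For Hoxb4 the other probe set, at 6.76, had -0.26 and -0.11.

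**Figure D4:**
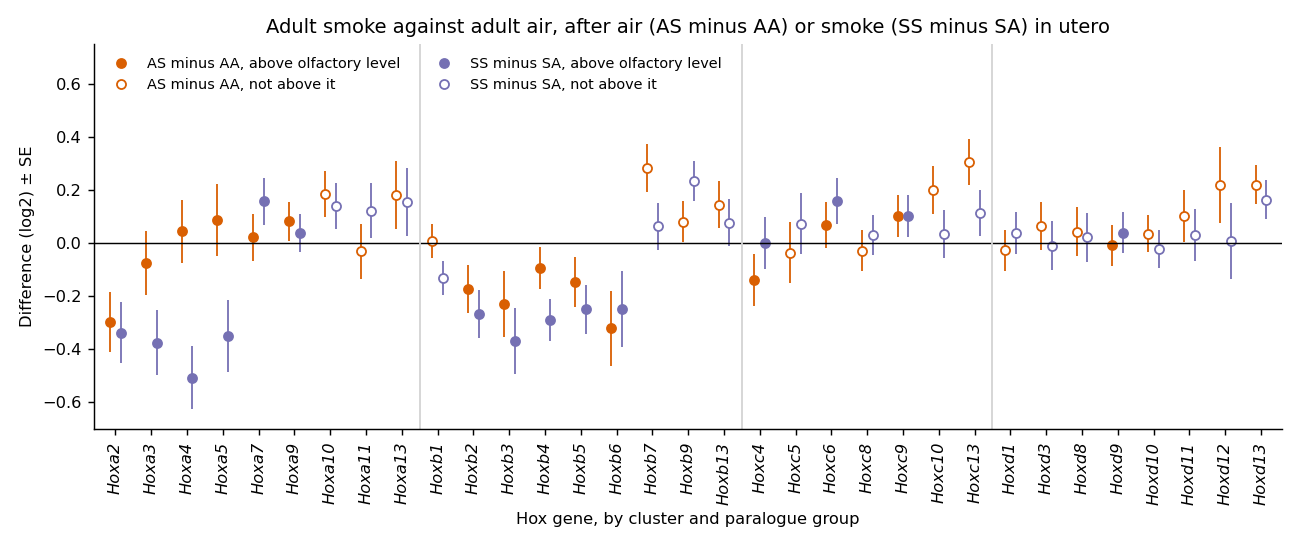
Difference (log2 ± SE) between adult smoke and adult air for each Hox gene, by cluster and paralogue group, after air in utero (AS minus AA) and after smoke in utero (SS minus SA); open points are genes not above the olfactory level. The genes from Hoxb2 to Hoxb6 lie below 0 in both comparisons, Hoxa4 is lowest at -0.51 in SS minus SA, and the open points of the posterior genes lie mostly above 0.

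Smoke in utero was compared at each adult exposure. With adults in air (SA minus AA) no Hox gene passed, nor did any probe set on the array (0%), and 1 Hox gene had an unadjusted p under 0.05 against 6.23% of probe sets. This was Hoxb4, with 8.18, 8.19, 7.93 and 8.13 in AA and higher values in all 4 SA samples (0.20 ± 0.07, adjusted p 0.755). The other Hoxb4 probe set, at a level of 6.76, had only 0.04. Hoxa4 (0.20 ± 0.11, 0.846) and Hoxa5 (0.23 ± 0.13, 0.847) followed, and the lowest p-values on the lower side were those of Hoxc13 (-0.15 ± 0.08, 0.846), Hoxd1 (-0.11 ± 0.07, 0.879) and Hoxa11 (-0.14 ± 0.09, 0.880). SA is the control of SS minus SA, so the higher SA values of Hoxa4, Hoxa5 and Hoxb4 at their highest-mean probe sets enter that comparison as well.

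With adults in smoke (SS minus AS) no Hox gene passed, where 0.968% of all probe sets did, and 3 had an unadjusted p under 0.05 against 13.6%. Hoxc13 (-0.34 ± 0.09, adjusted p 0.111) and Hoxa4 (-0.35 ± 0.13, 0.230) were lower in SS and Hoxb9 (0.23 ± 0.08, 0.216) was higher. Hoxc13 passed without the sample of AS replicates 3 and 4 (-0.43 ± 0.09, 0.0361). The next lowest p-value on the lower side was that of Hoxd3 (-0.20 ± 0.10, 0.400), and on the higher side those of Hoxb6 (0.25 ± 0.15, 0.486) and Hoxa7 (0.08 ± 0.10, 0.759). Averaged over adult exposures, the in-utero effect called no Hox gene, where 0.284% of probe sets were called, and 4 had an unadjusted p under 0.05 against 11.9%. They were Hoxc13 (-0.24 ± 0.06, 0.125), Hoxd3 (-0.16 ± 0.07, 0.341), Hoxb9 (0.16 ± 0.05, 0.253) and Hoxb6 (0.22 ± 0.10, 0.410). Hoxc13 passed here too without the sample of AS replicates 3 and 4 (-0.29 ± 0.06, 0.0363). Hoxd13 (-0.08 ± 0.05, 0.546) and Hoxb4 (0.10 ± 0.06, 0.503) had the lowest remaining p-values on the lower and the higher side.

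Smoke at both times against neither (SS minus AA) also called no Hox gene, where 0.400% of all probe sets were called, and 5 genes had an unadjusted p under 0.05 against 10.3%. The nearest was Hoxb9, which read 5.23, 5.17, 5.31 and 5.11 in AA and 5.44, 5.49 and 5.63 in SS (0.31 ± 0.08, adjusted p 0.102). Its groups did not overlap, at a level within the olfactory range. Lower values belonged to Hoxa4 (-0.31 ± 0.12, 0.360), Hoxb5 (-0.24 ± 0.09, 0.376) and Hoxa2 (-0.29 ± 0.11, 0.377). Hoxc9 (0.14 ± 0.08, 0.593) and Hoxd11 (0.16 ± 0.10, 0.623) completed the higher side.

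Hox proteins bind DNA together with TALE homeodomain partners of the Pbx, Meis and Pknox families. The list of these and the related TALE repressors Tgif1 and Tgif2 had 10 of 11 genes matched. Meis1, a Meis partner at a level of 9.74, fell in SS minus SA (-0.48 ± 0.08, adjusted p 0.00953), in SS minus AA (-0.47 ± 0.08, 0.0282) and in the adult average (-0.31 ± 0.06, 0.0101). Pbx3 fell in the adult average (-0.25 ± 0.07, 0.0458). Of all probe sets, 0.864% were called lower in SS minus SA and 3.13% in the adult average. In SS minus AA 0.400% were called in either direction. No other TALE gene passed in any of the 8 comparisons, and the median over the list was -0.10 in the adult average. Meis2 had -0.23 ± 0.11 (0.199) and Pknox2 0.19 ± 0.06 (0.0830).

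Hox clusters are held silent by Polycomb complexes and kept active by Trithorax-type complexes. None of 23 matched Polycomb genes (of 24) passed in any comparison. Ezh2, the Polycomb methyltransferase, had -0.36 ± 0.09 in SS minus SA (adjusted p 0.0541), and Cbx2 had -0.40 ± 0.15 (0.222). Of 18 matched Trithorax and related genes (of 19), 3 fell and 1 rose in the adult average, where 3.13% of all probe sets were called lower and 2.82% higher. Kmt2a, the MLL methyltransferase that maintains Hox expression, fell (-0.29 ± 0.06, 0.0118), as did Kmt2c (-0.17 ± 0.05, 0.0483) and the core subunit Rbbp5 (-0.20 ± 0.05, 0.0304), while the methyltransferase Dot1l rose (0.29 ± 0.07, 0.0375). Kmt2a also fell in SS minus SA (-0.38 ± 0.08, 0.0296). The list medians in the adult average were -0.08 for Polycomb and -0.01 for Trithorax genes.

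Retinoic acid switches on 3′ Hox genes in the embryo. Of 17 matched genes of its synthesis, breakdown and receptors (of 19), none passed in the adult average and 1 in SS minus SA, where 1.64% of all probe sets were called. This was the retinol carrier Rbp4, which rose (0.31 ± 0.07, adjusted p 0.0323). The synthesis enzyme Aldh1a2 had -0.24 ± 0.07 in the adult average (0.0545), and Cyp26b1, which breaks retinoic acid down, had -0.35 ± 0.45 (0.661). Of 13 other homeobox genes next to or related to the clusters, Meox2, a mesenchymal factor, fell in the adult average (-0.54 ± 0.13, 0.0302) and, just past the threshold, in SS minus SA (-0.78 ± 0.19, 0.050). Of all probe sets, 3.13% and 0.864% were called lower in these comparisons. The transcripts Hoxa11os, Hoxb5os and Hoxd3os1 from the clusters did not pass in any comparison. Hoxb5os, at 7.75, had -0.12 ± 0.05 in the adult average (0.156). For antisense transcripts the annotation alone gives the identity of the probe set.

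Of 19 regulators of lung identity and lung mesenchyme, 4 fell and 1 rose in the adult average, beside the same 3.13% and 2.82% of all probe sets. Tcf21, a factor of lung fibroblasts (-0.30 ± 0.06, adjusted p 0.0105), Foxf2 (-0.31 ± 0.08, 0.0412), Nr2f1 (-0.47 ± 0.09, 0.00841) and the epithelial factor Foxa2 (-0.35 ± 0.07, 0.0106) fell, and Foxf1, a factor of lung mesenchyme and capillaries, rose (0.32 ± 0.07, 0.0178). Tcf21 and Foxa2 also fell in SS minus SA (-0.43 ± 0.08, 0.0132, and -0.44 ± 0.10, 0.0301), and Tcf21 in SS minus AA (-0.45 ± 0.08, 0.0296). The median of the list was -0.13 in the adult average, beside 0.01 over all probe sets.

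The lung piece holds many cell types, and in such bulk tissue fewer cells of a type and less RNA per cell cannot be told apart. The mean of the 15 Hox genes above the olfactory level, relative to the AA mean, ran from -0.14 to 0.07 in AA, -0.12 to -0.04 in AS, 0.01 to 0.12 in SA and -0.13 to -0.05 in SS. The mean over 10 markers of mesothelium, the lining of the lung surface, was -0.39, -0.22 and -0.14 in AS and -0.26, -0.30 and -0.13 in SS, against -0.08 to 0.06 in AA and -0.15 to -0.05 in SA. In the adult average 2 of the 10 fell, Lrrn4 (-0.47 ± 0.07, adjusted p 0.00237) and Bnc1 (-0.64 ± 0.15, 0.0222), where 3.13% of all probe sets were called lower. The 12 fibroblast markers lay between -0.15 and -0.08 in SS and between -0.01 and 0.14 in SA, with -0.01, -0.21 and 0.14 in AS. In the adult average 1 of them, Tcf21, fell, beside the same 3.13% of all probe sets. No smooth muscle (11 genes) or endothelial (11 genes) marker passed in the adult average, and their lists ranged from -0.11 to 0.41 and from -0.11 to 0.16 over all samples. All markers of these 4 lists were above the olfactory level. The 5 matched B cell markers, 1 of them not above the olfactory level, lay between -1.02 and -0.44 in SS and between -0.15 and 0.11 in SA, and none passed in SS minus SA or the adult average, while Cd79a was lower in SS minus AS (-1.31 ± 0.22, adjusted p 0.0125). The 6 T cell markers lay between -0.32 and -0.17 in SS and between -0.17 and -0.03 in SA, and the 10 cardiac muscle markers between -0.30 and -0.01 in SS and between -0.14 and 0.69 in SA. The 12 immediate early genes, which respond to handling and stress, were at 1.39, 1.84 and 0.30 in AS, and between -0.40 and 0.48 in AA, -0.97 and -0.60 in SA, and -1.13 and -0.36 in SS. Of these 12, 5 rose in AS minus AA, where 1.55% of all probe sets were called, and 8 fell in SS minus AS (0.968%) and in the in-utero average (0.284%). Mesothelial markers were thus lower in adult smoke, as the Hox mean was, but were below the AA mean in SA, where the Hox mean was above it. Fibroblast, B cell, T cell and cardiac muscle markers had lower means in SS than in SA, as the Hox mean did. So did cell cycle (0.30 in SA, 0.003 in SS) and erythroid markers (0.61 and 0.19), which were highest in SA replicate 4. The mesothelial mean was lower in SS as well (-0.10 in SA, -0.23 in SS). Smooth muscle (0.14 and 0.12), endothelial (0.004 and -0.005) and lung markers (-0.002 and -0.009) were lower by small amounts. Adipocyte, thymocyte, neutrophil and immediate early lists had higher means in SS than in SA. The part of these lists in the Hox values was not tested.

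**Figure D5:**
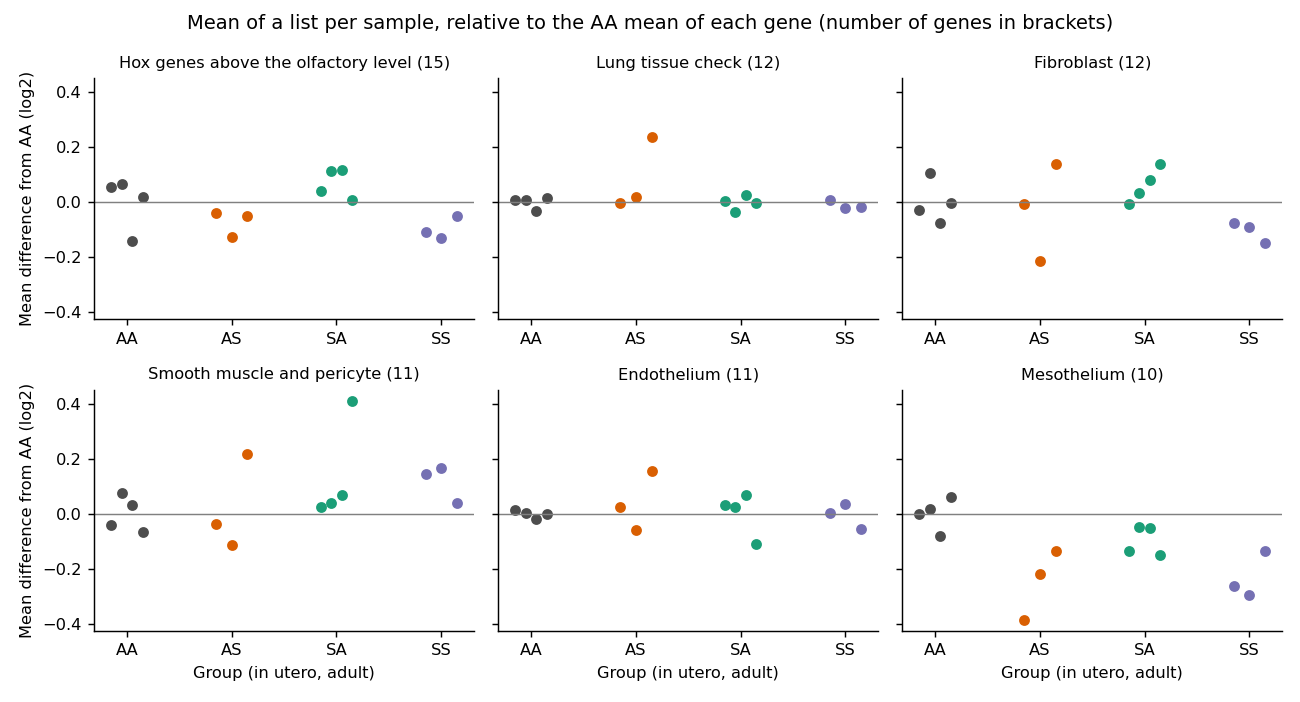
Mean difference from the AA mean (log2) per sample of the 15 Hox genes above the olfactory level and of 5 marker lists, by group, with the number of genes in brackets. The SA samples lie above the SS samples for the Hox mean and for the fibroblast list, and all AS and SS samples lie below all AA samples for the mesothelial list.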

How the data were processed

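Total RNA of the left lung had been hybridised to Affymetrix mouse expression arrays, 16 in all, each labelled as a biological replicate. The authors deposited log2 values per probe set, from 2.40 to 15.11, with array medians between 6.90 and 6.93, so already normalized; how background was corrected and probes were summarised is not given in the sources used here. The submitters' processing notes name limma as tool and give no version. No depth exists for arrays; the number of samples limits the precision.

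Of 45101 probe sets, 64 controls were left out. Symbols came from the platform annotation, updated by Entrez ID through RefSeq (34741 probe sets matched; 34945 had 1 symbol, 932 several and 9160 none). The 3 probe sets naming 2 Hox genes were not used. Arrays within groups were compared by their root mean square difference over variable bright probe sets, as a ratio to that over stable bright ones. SS replicates 1 and 2 (ratio 1.24) and AS replicates 3 and 4 (1.35) were averaged, and the other 22 pairs had ratios from 2.84 to 5.96.

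A model with 1 mean per group was fitted to all 45037 probe sets and 14 samples with limma 3.58.1 (lmFit, contrasts.fit, eBayes; 10 residual degrees of freedom) in R 4.3.3, two-sided, with Benjamini-Hochberg adjustment within each of 8 comparisons and a threshold of 0.05. It was tested on simulated data. Values after ± are the fit's standard errors, or SD where named. Text names every Hox gene past the threshold, otherwise the 3 lowest p-values in each direction, and from each list the members past it and up to 2 others. Members, lists and motifs were chosen with earlier results of these data known. Alternatives covered the arrays used, normalization, variance model, dim probe sets, probe set per gene and each sample left out.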

Additional observations from a re-analysis of the deposited data

Results flagged for a closer look

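Among the 66 sets of 4 samples tested (33 Hox genes in AA and in SA), 2 had a sample far from the others, where chance flags about 5% of such sets. Hoxa5, the bright lung gene, read 10.07 in AA replicate 1 and 9.81 to 9.84 in the other AA samples. Hoxd3 read 4.15 in SA replicate 4 and 3.90 to 3.93 in the other SA samples, at a level within the olfactory range. The AS and SS groups, with 3 samples each, could not be tested this way.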

How the results depend on the processing

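Hox genes past the threshold, by setting. With all 16 arrays counted separately there was 1 in AS minus AA, 1 in SS minus AS and 5 in the adult average, and with array weights 1, 1 and 8, plus 4 in SS minus SA, 1 in SS minus AA and 1 in the in-utero average. With only the samples of the 2 groups, or the unmoderated test, SS minus SA had 0. The adult average had 1 after a further quantile normalization, with a trended and robust variance, and with the unmoderated test. Leaving out 1 sample at a time, the count ran from 0 to 2 in SS minus SA, 0 to 6 in the adult average, and 0 to 1 in AS minus AA, SS minus AS and the in-utero average. Replicate numbers did not pair the samples: of 18 same-number pairs of deviations 3 correlated above 0.1 (from -0.16 to 0.25; other pairs -0.28 to 0.29). With the replicate block SS minus SA had 0 calls (Hoxa4 adjusted p 0.0726) and the adult average 1 (Hoxa2). Hoxa4 passed in 13 of 24 alternatives (adjusted p from 0.00727 to 0.157), Hoxa2 in 11 of 22 (0.00887 to 0.0845) and Hoxd13 in 6 of 22 (0.0161 to 0.392). Their directions held in all of these. Hoxa7 in SS minus AS turned to -0.016 without SS replicate 3 (highest 0.142 without AS replicate 1). With the bright limit at 8.20, 3 Hox genes were bright, and with all probe sets of a gene averaged, an alternative chosen after seeing the data, Spearman's rho of level against paralogue number was -0.34. Over all genes named, comparisons and alternatives, the threshold was newly passed 27 times, and the 3 calls lost it 38 times between them. The causes were not tested. No other Hox probe set was called, and the largest gap in any comparison between a gene's probe sets was 0.57, for Hoxa3 in SS minus SA. Signals within the olfactory range limit what 18 of the genes can show.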
